A study of Mus musculus with 4 samples.

Results

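The loci of 10 genes of the mouse pluripotency network were examined in DNA replication profiles of embryonic stem cells. The genes were Pou5f1 (which encodes Oct4), Sox2, Nanog, Klf4, Klf2, Esrrb, Tfcp2l1, Prdm14, Sall4 and Lin28a. They were chosen by name as known members of the network, not by a cut on their values, though with earlier results of these data known. Each locus was taken as the windows whose midpoint lay within 500 kb of the gene interval in the GRCm38 build, which gave 411 of the 94694 autosomal windows used. The 10 genes were set against all 20217 autosomal protein-coding genes that had a window. No window in the 10 intervals lacked a value in any library.

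The study profiled embryonic stem cells of the 129S6/SvEvTac mouse line in 2 genotypes, wild type (WT) and Snf2h knockout (KO), with duplicate cultures of each. Both genotypes were grown under the same conditions, in medium with serum and LIF on gelatin, and no further agent was named. The sources used here do not say how Snf2h was disrupted or whether the KO cells were 1 clone. Only genomic DNA was measured, so neither the loss of Snf2h nor the labelled cell type could be checked against expression.

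TrAEL-seq captures free DNA 3′ ends, which in dividing cells arise largely at replication forks, so an imbalance between the strands of the captured ends reports the prevailing direction of fork movement. The deposited value of each 100 kb window, placed every 25 kb, is this signed imbalance, called polarity here and given in points from -50 to 50. A value near 0 means that both strands were read about equally, and the size of the value means that 1 strand prevailed. Where many forks start or meet, polarity turns from one sign to the other along the chromosome. Which strand was counted as positive is not given in the sources used here. Stretches in which polarity climbs (rises) or descends (falls) with increasing coordinate were therefore not assigned to fork initiation or termination. No read counts accompany the values, so the depth behind each window is unknown.

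Oct4, Sox2 and Nanog bind regulatory DNA of one another's genes and of many other genes that keep embryonic stem cells undifferentiated. Klf4, Klf2, Esrrb, Tfcp2l1 and Prdm14 are further regulators of the naive state, Sall4 is a zinc finger protein of the same network, and Lin28a is an RNA-binding protein that blocks maturation of let-7 microRNAs. Snf2h is the ATPase of ISWI complexes, which slide and space nucleosomes. The question the study design addresses is how replication profiles differ between cells with and without it.

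The sequences upstream of the transcription starts differed widely among these genes, although most of the genes lay in the same kind of stretch of the replication profile. The RefSeq promoter table for GRCm38.p6 held 11 entries for 8 of the genes. Prdm14 and Sall4 had none. Below are the 250 bases before the start of Nanog, at chr6:122707239-122707488 on the plus strand, with the match to the composite Oct-Sox motif in capitals, and the 250 bases before the start of Klf4, at chr4:55532476-55532725 on the minus strand, with every CpG in capitals. They are shown because one carries the site through which Oct4 and Sox2 are known to act on Nanog and the other is the promoter richest in CpG of the set.
Nanog: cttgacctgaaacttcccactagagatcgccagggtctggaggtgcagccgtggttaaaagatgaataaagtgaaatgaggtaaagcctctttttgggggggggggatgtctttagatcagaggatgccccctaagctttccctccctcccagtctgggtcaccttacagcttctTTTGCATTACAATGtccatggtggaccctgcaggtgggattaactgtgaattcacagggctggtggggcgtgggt
Klf4: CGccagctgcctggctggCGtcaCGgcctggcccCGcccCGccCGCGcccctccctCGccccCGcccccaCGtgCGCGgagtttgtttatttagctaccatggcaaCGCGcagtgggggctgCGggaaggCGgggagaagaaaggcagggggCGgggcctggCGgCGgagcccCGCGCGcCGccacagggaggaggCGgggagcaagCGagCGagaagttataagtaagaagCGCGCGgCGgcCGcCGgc
The motif, searched on both strands as CATTGT, any base, then ATGCAAA, was found in 2 of the 32851 promoter entries of the table (0.00609%), both of them overlapping entries of Nanog. It began 75 bases before the start in the entry shown. Only 1 base of the searched string was free, so variant sites and sites beyond the 250 bases could not be found. The Klf4 sequence held 32 CpG, Klf2 held 29, Sox2 held 27 and Tfcp2l1 held 16, against a median of 6 over all entries. The median of the 11 entries of the set was 7, and 6 of the 11 were above the median of all entries. The Nanog sequence held 3. The motif TATAAA, also searched on both strands, was present in 1 of the 11 entries, that of Tfcp2l1, and in 12.4% of all entries. A window of 100 kb does not resolve a promoter, so no replication value here belongs to these sequences as such.

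Most of the genes lay where polarity was climbing from negative to positive. Rises and falls were called on the running mean over 5 windows of the mean of all 4 libraries, as stretches between neighbouring turning points that spanned at least 1 SD of the profile. Across the autosomes this gave 2455 rises with a median length of 225 kb and 2437 falls with a median length of 325 kb. Rises covered 29.0% of windows and falls 39.7%. A rise overlapped 8 of the 10 genes, compared with 50.7% of all protein-coding genes. The exceptions were Esrrb and Lin28a. Counting only the gene midpoint left 8 of 10, compared with 43.1% of all genes. A fall overlapped 1 gene, Esrrb, compared with 27.9% of all genes. This is a description of 10 chosen genes.

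**Figure D1:**
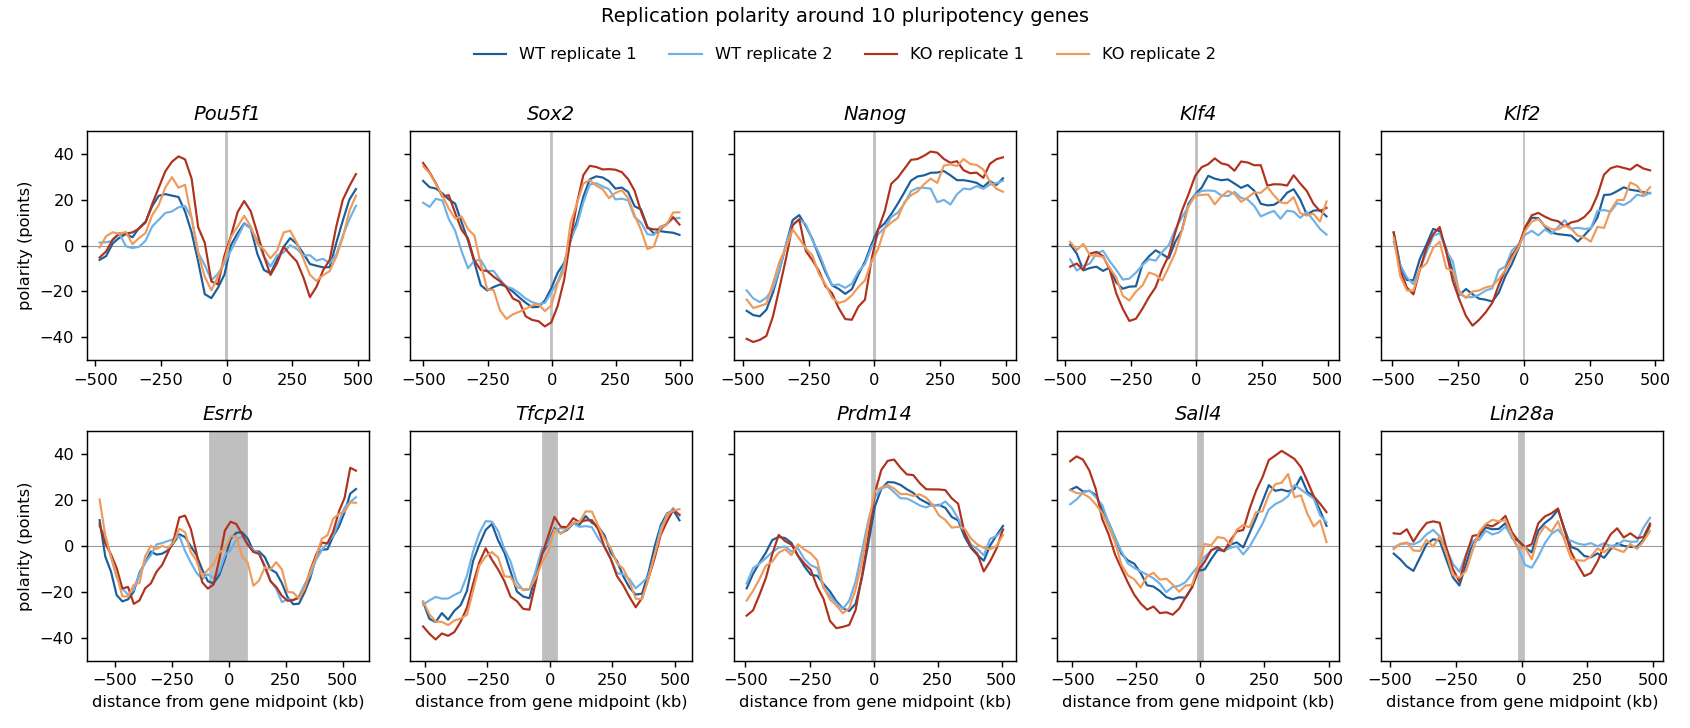
Polarity in points against distance from the gene in kb, for each of the 10 loci; the 4 lines are the 4 libraries and the grey band is the gene. In 8 panels polarity climbs across the gene, while the Esrrb gene meets the top of a small hump and the mean Lin28a profile stays between -14.5 and 12.5 points.

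The 3 core genes sat at different points of their rises. Pou5f1, at chr17:35506032-35510777 on the plus strand, lay near the middle of the shortest rise of the set, chr17:35450000-35575000, 125 kb long. Tcf19, Cchcr1 and Psors1c2 were its nearest neighbours in that rise. Polarity crossed 0 at 31.6 and 28.0 kb after the gene midpoint in the WT libraries, and at 4.32 and 12.7 kb after it in the KO libraries. The crossings lay closer to Pou5f1 in both KO libraries than in both WT libraries, and the 4 spanned 27.3 kb, just over the 25 kb step between windows. No test was made of crossing positions.

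Sox2, at chr3:34649995-34652461 on the plus strand, lay close to the start of its rise, chr3:34600000-34850000, 51.2 kb after the trough. The crossing lay 64.6 and 69.8 kb after the gene midpoint in WT, compared with 69.6 and 60.7 kb after it in KO. The 4 Sox2 crossings stayed within 9.07 kb of one another, less than the 25 kb step between windows. Sox2 was the only protein-coding gene in its whole locus, and neither its rise nor its nearest fall overlapped another one.

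Nanog, at chr6:122707489-122714633 on the plus strand, lay almost on the crossing of a rise of 375 kb, chr6:122600000-122975000. The crossings were at -8.93 and -3.14 kb from the gene midpoint in WT, compared with at 5.02 and 19.5 kb in KO, where negative values lie before the gene in coordinate order. The same rise held Slc2a3, a glucose transporter gene, and Dppa3 and Gdf3, which are expressed in pluripotent cells and lie 77.2 and 97.4 kb from Nanog. The genes of this cluster therefore share a rise and are not separate cases of a gene in a rise.

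Both Krüppel-like factor genes lay in the later part of their rises, after polarity had turned positive. Klf4, at chr4:55527137-55532475 on the minus strand, lay 255 kb after the start of the rise chr4:55275000-55625000, and its crossings were 77.1 to 119 kb before the gene midpoint over the 4 libraries. Rad23b, a DNA repair gene, shared this rise, and Zfp462 overlapped the fall before it. Klf2, at chr8:72319062-72321654 on the plus strand, lay 195 kb after the start of the rise chr8:72125000-72400000, with Eps15l1, Ap1m1 and Fam32a nearby in it. The Klf2 crossings lay 17.9, 20.9, 25.3 and 20.2 kb before the gene midpoint in WT replicates 1 and 2 and KO replicates 1 and 2, within 7.40 kb of one another.

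Among the other regulators of the naive state, Tfcp2l1, at chr1:118627923-118685168 on the plus strand, lay in the middle of the rise chr1:118550000-118775000, with crossings between 10.4 kb before and 6.53 kb after its midpoint. Prdm14, at chr1:13113428-13127163, lay in the rise chr1:13000000-13200000, with crossings 22.3 to 40.7 kb before its midpoint. Ncoa2, a nuclear receptor coactivator gene, overlapped both the rise and the fall nearest to Prdm14. Sall4, at chr2:168748332-168767201, lay in the longest rise of the set, chr2:168650000-169100000, 450 kb long. Its crossings were the most spread, at 125 and 168 kb after the gene midpoint in WT, compared with at 84.8 and 43.0 kb in KO.

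Esrrb and Lin28a stood outside the common rises. The Esrrb gene, at chr12:86361117-86521628 on the plus strand, is the longest of the set, and a fall, chr12:86475000-86725000, began inside it. Its nearest common rise, chr12:86000000-86225000, ended 136 kb before the gene. On the mean of the WT libraries alone, a further small rise that overlapped Esrrb was called, chr12:86350000-86500000, beginning just before the gene. Its heights were 14.9, 13.6, 16.7 and 3.99 points in WT replicates 1 and 2 and KO replicates 1 and 2. Between these ends, which were set on the WT libraries, the height was lowest in KO replicate 2 and highest in KO replicate 1. With the ends left free within 100 kb of those, the largest climb of the running mean reached 15.2 and 13.6 points for WT, compared with 18.5 and 8.08 points for KO replicates 1 and 2. A rise had to reach 14.6, 12.8, 19.4 and 14.5 points in the 4 libraries, the SD of each, so only the WT libraries called it by themselves. The genotypes overlapped in its height.

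Lin28a, at chr4:134003330-134019196 on the minus strand, lay in the flattest profile of the set. Its nearest rise, chr4:134275000-134550000, began 256 kb beyond the gene, and the nearest fall, chr4:134550000-134700000, followed it directly, 531 kb from the gene and so outside the 500 kb locus. Over the 10 loci, the fall ended where the rise began in 7, the rise ended where the fall began in Prdm14 and Lin28a, and the nearest rise and fall did not touch in Esrrb.

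**Figure D2:**
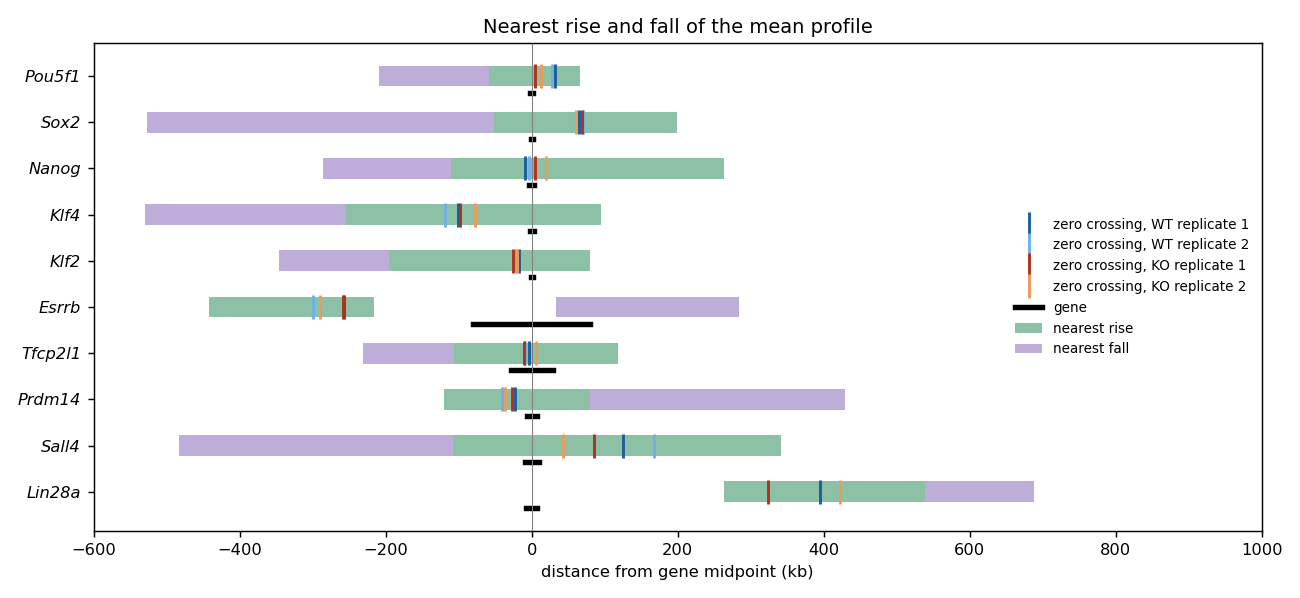
Position in kb relative to the midpoint of each gene for the nearest rise (green), the nearest fall (purple), the gene itself (black) and the zero crossing of each library (ticks). The rises of 8 genes pass over position 0, and the crossings of Sall4 spread over 125 kb while those of Klf2 lie within 7.40 kb.

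The count of genes in a rise was also taken with rises called in other ways. It was 7 to 9 of 10 over 13 other settings, with running means of other lengths, a lower minimum, or profiles of 1 genotype, 1 library or 3 libraries. All protein-coding genes gave 49.1% to 60.5% in the same settings. Lin28a was outside a rise in every one of these settings, Esrrb in 7 and Pou5f1 in 2, which were KO replicate 1 alone and a running mean of 9 windows. Called in each library by itself, 7 genes lay in a rise in all 4.

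Related genes were counted in the same way. Of 25 other genes of the naive network, 23 (92.0%) overlapped a common rise, in 21 distinct rises, and 19 (76.0%) had the midpoint in one. Of 8 genes of the formative and primed states, 7 (87.5%) overlapped one. Stat3, Tcl1 and Lef1 were the listed genes outside a rise. Dppa3 and Gdf3 are among the 25 and share the rise of Nanog.

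**Figure D3:**
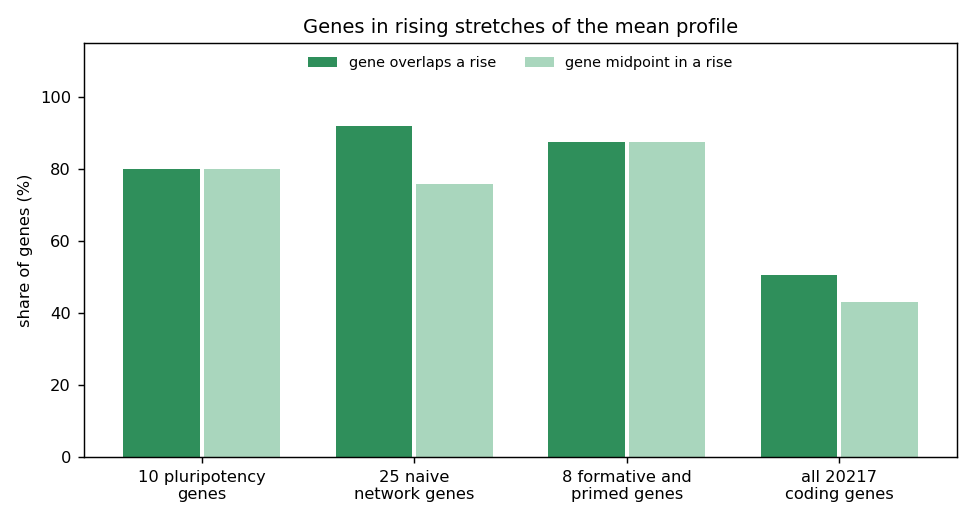
Percent of genes overlapped by a common rise and percent with the midpoint in one, for the 10 pluripotency genes, the 25 naive network genes, the 8 formative and primed genes and all 20217 protein-coding genes. The bars of the 3 lists stand between 76.0% and 92.0%, and those of all genes at 50.7% and 43.1%.

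Polarity at the genes themselves ranged from strongly negative at Sox2 to strongly positive at Klf4, and no gene differed between genotypes past the threshold. The value at a gene is that of the window whose midpoint is nearest to the gene midpoint. Limma was fitted over all 17369 distinct windows of protein-coding genes. A gene was called at a p-value under 0.05 after Benjamini-Hochberg adjustment. It called 0 of the 10 genes, against a background of 0.0173% of all gene windows. At an unadjusted p under 0.05 it called 1 of 10, Sox2, against 12.6% of gene windows. An exact permutation test of 2 against 2 libraries cannot go below p = 0.333.

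At Pou5f1 the values were -12.6 and -7.68 points in WT, compared with -4.30 and -6.39 in KO. All 4 Pou5f1 values were negative, and both KO libraries lay nearer 0 than both WT libraries. The difference of KO minus WT was 4.79 ± 4.28 points (standard error, limma adjusted p = 0.649), with 2.33 points without WT replicate 1 and 7.25 without WT replicate 2. At Sox2, a partner of Oct4 in DNA binding, polarity was -18.6 and -20.4 in WT, compared with -33.5 and -26.1 in KO. The genotypes did not overlap at Sox2, with KO further from 0. Means were -19.5 ± 1.31 and -29.8 ± 5.20 for WT and KO (SD, 2 libraries each), and the difference was -10.3 ± 4.39 points (standard error, limma adjusted p = 0.357). Without KO replicate 1 the Sox2 difference was -6.63 points (limma adjusted p = 0.377), and without KO replicate 2 it was -14.0 points (limma adjusted p = 0.0148), in a fit that called 20.9% of all gene windows. A fit without 1 KO library takes its spread from the WT pair alone and assumes that the single KO library varies likewise, so it compares that library with WT.

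Nanog had polarity of 0.549 and -0.746 points in WT, compared with -6.07 and -6.90 in KO. The WT libraries were balanced at Nanog and both KO libraries were negative, by a difference of -6.39 ± 4.18 points (standard error, limma adjusted p = 0.535). None of the differences at the 3 core genes passed the threshold with all 4 libraries.

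At Klf4 the 4 values were 22.3 and 22.1 in WT, compared with 30.3 and 21.7 in KO. KO replicate 1 stood apart there and KO replicate 2 was just below both WT libraries, with a difference of 3.80 ± 4.45 points (standard error, limma adjusted p = 0.741). Klf2 showed 7.75 and 4.69 in WT, compared with 7.95 and 6.39 in KO, which overlap. Both Krüppel-like factor genes were positive in every library.

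Esrrb, an orphan nuclear receptor gene, had 3.10 and -1.80 in WT, compared with 10.6 and 4.19 in KO. Both KO libraries were above both WT libraries at Esrrb, with a difference of 6.72 ± 4.41 points (standard error, limma adjusted p = 0.535). It was 3.55 points without KO replicate 1 and 4.27 points without WT replicate 2. Prdm14, a PR domain repressor gene, had 17.2 and 21.2 in WT, compared with 23.0 and 24.0 in KO. The KO libraries were again both above, by 4.27 ± 4.24 points (standard error, limma adjusted p = 0.689). The Prdm14 difference was 2.23 points without WT replicate 1, and 0.0028 SD with each library divided by its own SD. Tfcp2l1, a gene of the Grainyhead-like family, had 1.19 and 0.826 in WT, compared with 4.29 and -2.58 in KO, so the KO libraries lay on either side of the WT libraries.

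The remaining genes gave nearly the same values in both genotypes. Sall4 had -10.9 and -8.64 in WT, compared with -10.5 and -8.68 in KO, a difference of 0.174 ± 4.20 points (standard error). Lin28a had 2.11 and -1.54 in WT, compared with 2.11 and -1.18 in KO, a difference of 0.182 ± 4.26 points (standard error). With these standard errors a shift of several points at either gene would not have been detectable.

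**Figure D4:**
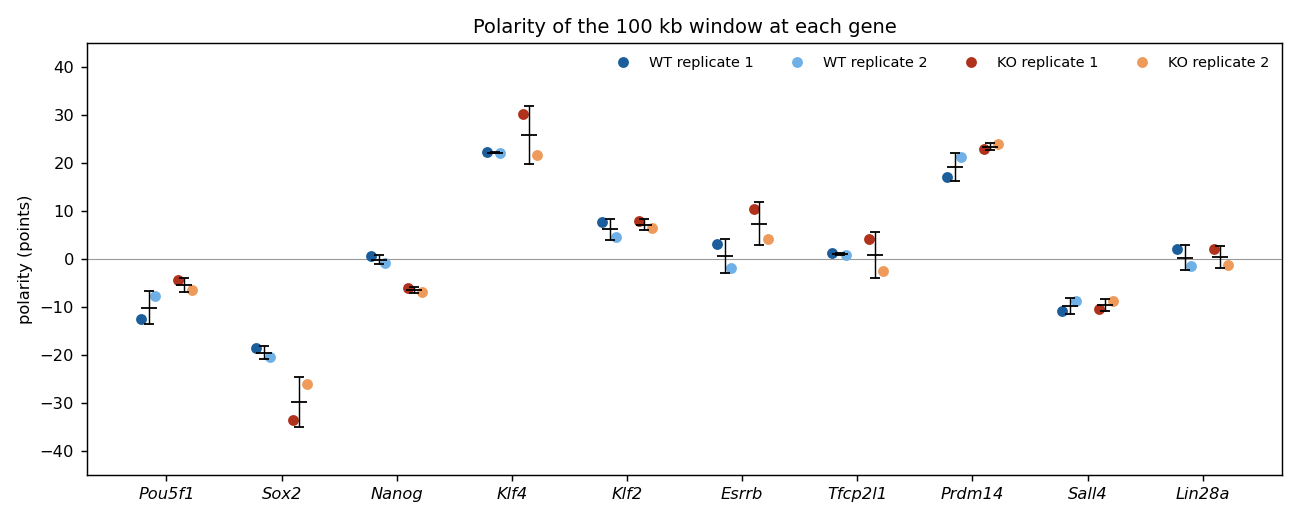
Polarity in points of the 100 kb window nearest to each gene midpoint; dots are the 4 libraries and bars give the mean ± SD of each genotype (n = 2). Sox2 lies lowest and Klf4 and Prdm14 highest, and the genotypes do not overlap at Pou5f1, Sox2, Nanog, Esrrb and Prdm14.

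Over the 10 genes, both KO libraries were above both WT libraries in 3 (Pou5f1, Esrrb and Prdm14), against 23.1% of gene windows, and below in 2 (Sox2 and Nanog), against 22.3%. The other 5 overlapped. The median size of the difference was 4.03 points, and it was 4.31 points over all gene windows. Mean polarity was positive at 6 genes, and 6 genes kept 1 sign in all 4 libraries. The median size of polarity was 7.22 points for the 10 genes and 10.3 points for all genes.

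The rises nearest to these genes were 16.3 to 54.8 points high, and the mean height was greater in KO than in WT at every gene, with no call at the threshold. The height of a segment is the difference of the running mean between its ends. The median height over the 10 nearest rises, on the mean of all libraries, was 39.2 points, compared with 30.0 points for the nearest rise of all protein-coding genes. Of the 10 rises, 5 were above 38.8 points, the upper quartile of all rises. KO was above WT in the mean at 10 of 10, against 79.2% of all rises, and both KO libraries were above both WT libraries in 2, against 40.9% of all rises, and below in 0, against 6.8%. Limma over all 2455 rises called 0 of 10 at an adjusted p under 0.05, against 0.896% of all rises, and 1 of 10 at an unadjusted p under 0.05, against 15.2%.

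The rise at Nanog had the largest difference between genotypes with all 4 libraries. Its heights were 48.8 and 36.9 points in WT, compared with 66.2 and 54.6 in KO. Both KO libraries were above both WT libraries at Nanog, with means of 42.9 ± 8.42 and 60.4 ± 8.20 for WT and KO (SD, 2 libraries each). The difference of 17.6 ± 7.12 points (standard error) had an unadjusted p of 0.0137 and an adjusted p of 0.207 in limma. At Sox2 the heights were 52.5 and 48.6 in WT, compared with 66.7 and 51.4 in KO, and at Pou5f1 they were 20.3 and 13.5 in WT, compared with 17.3 and 18.1 in KO. The genotypes overlapped at both, and Pou5f1 had the lowest rise of the 8 that covered their gene.

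The rise at Klf4 had heights of 44.5 and 35.0 points in WT, compared with 63.5 and 41.0 in KO, with a difference of 12.6 ± 7.12 (standard error, limma adjusted p = 0.368). The rise at Klf2 had heights of 30.3 and 27.7 in WT, compared with 42.5 and 29.1 in KO. In both, KO replicate 1 was well above the other libraries and KO replicate 2 lay between the WT libraries. The rises at Prdm14, with 51.3 and 45.9 in WT, compared with 67.9 and 49.4 in KO, and at Sall4, with 47.5 and 39.7 in WT, compared with 66.2 and 42.5 in KO, had the same order of libraries.

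Tfcp2l1 was the other gene at which the genotypes did not overlap, with rise heights of 27.6 and 22.9 in WT, compared with 34.1 and 28.3 in KO. The pooled SD of the 2 genotypes there was 3.74 points, while the standard error is the one shared by all 10 rises. The difference was 5.93 ± 7.12 points (standard error, limma adjusted p = 0.700). It was 3.03 points without KO replicate 1 and 3.58 without WT replicate 2, and 0.0155 SD with each library divided by its own SD. The rises nearest to Esrrb, with 21.7 and 17.0 in WT, compared with 25.6 and 20.3 in KO, and to Lin28a, with 16.0 and 12.7 in WT, compared with 21.0 and 15.3 in KO, were low and overlapped between genotypes.

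**Figure D5:**
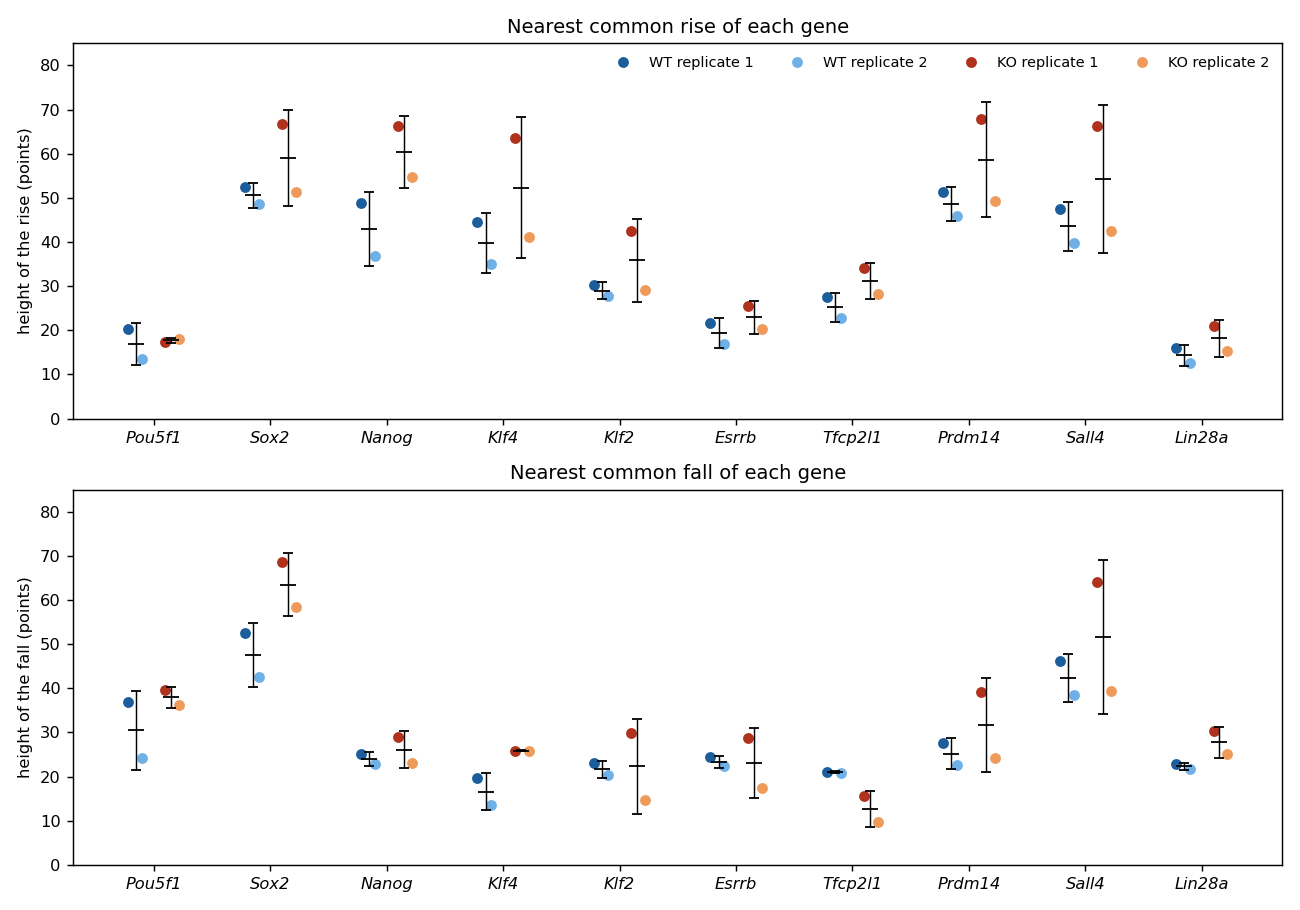
Height in points of the nearest rise (top) and the nearest fall (bottom) of each gene; dots are the 4 libraries and bars give the mean ± SD of each genotype (n = 2). KO replicate 1 is the highest dot of the rise at 9 of 10 genes and WT replicate 2 the lowest at all 10, and KO replicate 2 lies between the WT libraries at 8.

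The same order of libraries was seen in the spread of each whole library. The SD of polarity over all windows used was 14.6 and 12.8 points in WT, compared with 19.5 and 14.5 in KO, a KO to WT ratio of 1.24, and the median ratio of the 10 rise heights was 1.24, with a range from 1.05 to 1.41. KO replicate 1 was the highest library at 9 of the 10 rises. Without KO replicate 2, limma called the rises at 6 genes (Nanog, Sox2, Klf4, Prdm14, Klf2 and Sall4), in a fit that called 43.4% of all rises and took its spread from the WT pair alone. In that fit the difference at Klf4 (23.8 points) was above that at Nanog (23.4 points). Without KO replicate 1, limma called none of the 10, against 1.18% of all rises. The differences without KO replicate 1 were 11.8 points at Nanog, 1.30 at Klf4, 0.806 at Sox2, 0.805 at Prdm14, 0.112 at Klf2 and -1.15 at Sall4. With each library divided by its own SD, the sign of the difference turned negative at 6 genes (Pou5f1, Sox2, Esrrb, Prdm14, Klf2 and Sall4). The part of the whole-library spread in the single differences was not tested.

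Among the falls nearest to the genes, that of Sox2 had the largest difference in points with all 4 libraries. With each library divided by its own SD the largest was that of Tfcp2l1 (-0.796 SD, limma adjusted p = 0.0993), while Sox2 had 0.323 SD. Limma over all 2437 falls called 0 of 10 at an adjusted p under 0.05, against 0.041% of all falls, and 1 of 10, that of Sox2, at an unadjusted p under 0.05, against 9.73%. The Sox2 fall, chr3:34125000-34600000, had heights of 52.6 and 42.5 points in WT, compared with 68.5 and 58.5 in KO. Both KO libraries were above both WT libraries there, by 15.9 ± 6.75 points (standard error, limma adjusted p = 0.399). Without KO replicate 2 the falls of Sox2, Prdm14 and Sall4 were called, in a fit that called 36.5% of all falls and took its spread from the WT pair alone. The Sox2 difference was 10.9 points without KO replicate 1 and 21.0 points without KO replicate 2, and in these fits the falls of Tfcp2l1 (-11.2 points) and Sall4 (21.6 points), respectively, differed more.

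The Klf4 fall, chr4:55000000-55275000, had 19.6 and 13.6 in WT, compared with 25.7 and 25.9 in KO, and the distant Lin28a fall had 22.9 and 21.8 in WT, compared with 30.3 and 25.2 in KO. In both of these the KO libraries were above the WT libraries without overlap, which was so for 3 of 10 genes with Sox2, against 39.3% of all falls. Tfcp2l1 went the other way. Its fall, chr1:118425000-118550000, which overlaps Clasp1, a microtubule regulator gene, had 21.1 and 20.8 in WT, compared with 15.5 and 9.78 in KO. Both KO libraries were below both WT libraries at Tfcp2l1, by -8.31 ± 6.68 points (standard error, limma adjusted p = 0.657), a pattern seen in 4.06% of all falls. The difference was -5.44 points without KO replicate 2.

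The other 6 falls overlapped between genotypes. Pou5f1 had a fall of 36.8 and 24.2 in WT, compared with 39.7 and 36.2 in KO at chr17:35300000-35450000, which holds the MHC genes H2-Q7, H2-Q6 and H2-Q4. The fall of Sall4, chr2:168275000-168650000, had 46.2 and 38.5 in WT, compared with 64.0 and 39.4 in KO. Those of Nanog, Klf2, Esrrb and Prdm14 had means of 21.7 to 25.1 in WT and 22.3 to 31.6 in KO. The KO mean was above the WT mean for 8 of the 10 falls, against 80.8% of all falls.

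Across the whole loci the profiles of the genotypes had nearly the same shape. The correlation between the WT mean and the KO mean over the windows of a locus, which overlap and share libraries, ran from 0.844 at Lin28a to 0.992 at Klf2, with a median of 0.963, and the median for all protein-coding genes was 0.940. Nanog had the widest swings, with an SD of polarity within the locus of 21.6 and 18.0 points in WT, compared with 29.8 and 22.5 in KO. Lin28a had the narrowest, with 7.08 and 4.90 in WT, compared with 7.70 and 6.26 in KO. The median SD of the 10 loci on the mean profile was 16.4 points, above 15.6, the upper quartile for all protein-coding genes. The KO to WT ratio of these SDs was 1.13 to 1.39 with a median of 1.23, and the median for all genes was 1.24. The 10 loci held a median of 8 protein-coding genes, compared with 17 for the loci of all genes. The comparisons with all genes were not matched for this.

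Of the 411 windows, 104 were spaced 100 kb apart and did not overlap within a locus, and these were tested in a limma fit over all 23672 such windows. It called 0 of 104, against 0.0549% of all, with a smallest adjusted p of 0.205. At an unadjusted p under 0.05 it called 10 (9.62%), against 12.2%. Both KO libraries were above both WT libraries in 19 of the 104, against 22.2% of all, and below in 19, against 22.5%. The median size of the difference was 3.60 points for the 104 windows and 4.44 points for all. With spread from the WT pair alone, the fit without KO replicate 2 called 24 of them, against 20.2% of all, and without KO replicate 1 it called 2, in the loci of Tfcp2l1 and Esrrb, against 5.79%.

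The windows of largest difference in each locus were picked for that difference, so their values are given as a description. In the Pou5f1 locus it was chr17:35300001-35400000, with 14.9 and 17.2 points in WT, compared with 37.6 and 26.5 in KO. This window is also one of the 104 above. It was not called in the main fit of all 4 libraries. With the replicate number added to that fit as a block it was called (limma adjusted p = 0.0264), against 2.66% of all windows. The difference without KO replicate 2 was 21.5 points. The window lies early in the fall beside the H2-Q genes, and both KO libraries were higher there. In the Tfcp2l1 locus it was chr1:118375001-118475000, with 9.58 and 10.6 in WT, compared with -6.01 and -2.68 in KO. Polarity had opposite signs in the genotypes in this Tfcp2l1 window, at the start of the fall that was lower in KO. In the Klf4 locus it was chr4:55275001-55375000, with -8.05 and -8.48 in WT, compared with -27.5 and -17.4 in KO, early in the rise.

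The shapes of the 10 profiles were compared over 41 offsets from -500 to 500 kb in coordinate order, as a description. Of the 45 pairs of loci, 29 had a correlation of the mean profile above 0, with a median of 0.225. The profiles of Sox2 and Sall4 were the most alike (r = 0.816), followed by Klf4 and Prdm14 (r = 0.791). The least alike were Pou5f1 and Klf4 (r = -0.521) and Sox2 and Esrrb (r = -0.469). Sox2 and Sall4 both lay early in a tall rise that followed a long fall, and Klf4 and Prdm14 both lay in the later part of a tall rise.

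Among the related lists, polarity at the gene was called in 0 of 25 naive network genes and 0 of 8 formative and primed genes by the same limma fit, with smallest adjusted p-values of 0.371 and 0.116. The share over all gene windows was 0.0173%. At an unadjusted p under 0.05 it was 2 of 25 and 2 of 8, against 12.6% of all gene windows. Both KO libraries were above both WT libraries in 7 of the 25, against 23.1% of all gene windows, and below in 5, against 22.3%, and the median difference was 1.58 points. In the formative and primed list these counts were 3 and 3, with a median of 1.18 points. The median over all gene windows was 0.105 points.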

How the data were processed

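TrAEL-seq libraries of 2 WT and 2 KO cultures were used. Trim Galore 0.6.5 and Bowtie2 2.4.1 with the GRCm38 build are named in the submitters' processing notes, and the column names of the deposited table speak of deduplicated reads. The authors deposited a score per library for 109033 windows of 100 kb every 25 kb, a signed strand imbalance between -50 and 50 per the values of the deposited table. The program that made the windows, any read minimum and the strand counted as positive are not given in the sources used here. A library had no value in 7641 to 8249 windows, and windows on the 19 autosomes of full length with values in all 4 libraries were used. WT replicate 2 was matched to its column by library name, since its index differs between label and column. Replicates are separate cultures per the study design. The p-values and standard errors rest on the spread between these 4 libraries as limma pools it across features, not on the spread at each feature alone. The standard error was 7.12 points for the rises of both Lin28a and Sall4, whose pooled SDs were 3.35 and 12.5 points. For polarity at the gene it was 4.18 points at Nanog and 4.45 at Klf4, with pooled SDs of 0.767 and 4.28 points.

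Genes were taken from RefSeq GRCm38.p6. The tool for KO minus WT was limma (version 3.58.1, under R 4.3.3), with the functions lmFit and eBayes and no covariate, and Benjamini-Hochberg adjustment over all features of a kind, and the steps were tested on simulated data. Other scaling, running means, thresholds and left-out libraries were tried as alternatives. All 10 genes are named, listed genes only by count unless called, and neighbours only as the 3 nearest in a segment; Dppa3, Gdf3 and listed genes outside a rise are named for position. The genes and lists were chosen with earlier results of these data known. Other positions were not analysed here.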

Additional observations from a re-analysis of the deposited data

How the results depend on the processing

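With 2 libraries a genotype and no counts, depth and counting error are unknown, and the number of libraries limits every comparison. The same replicate number in WT and KO marks no shared culture in the labels, and the correlation of the deviations of same-numbered libraries was 0.241. With the replicate block, the numbers called were 0 gene windows, 1 locus window (that of largest difference at Pou5f1, adjusted p = 0.0264, against 2.66% of all windows), 1 rise (Nanog, adjusted p = 0.0179, against 13.6% of all rises) and 1 fall (Sox2, adjusted p = 0.0364, against 6.32% of all falls), all by limma. Of the listed genes, the block called 0 of 25 and 1 of 8 (Lef1, adjusted p = 0.00145), against 3.25% of all gene windows. Leaving out each library in turn gave 0 to 1 gene windows, 0 to 24 locus windows, 0 to 6 rises and 0 to 3 falls called, the highest each time without KO replicate 2, and 8 to 9 genes in a rise. No other alternative called a gene window, locus window, rise or fall of the 10 genes. With each library standardised by its own SD, the sign of KO minus WT turned for polarity at Klf4 (-0.0959 SD) and Klf2 (-0.0230), for the rise of Pou5f1 (-0.152), Sox2 (-0.204), Esrrb (-0.0486), Prdm14 (-0.0938), Klf2 (-0.0176) and Sall4 (-0.00510), and for the fall of Nanog (-0.200), Klf2 (-0.303) and Sall4 (-0.0780). Leaving out 1 library turned the sign, in points from lowest to highest, for polarity at Tfcp2l1 (-3.59 to 3.28), Sall4 (-0.951 to 1.30), Klf2 (-0.582 to 2.48), Lin28a (-1.64 to 2.01) and Klf4 (-0.481 to 8.08), for the rise of Pou5f1 (-2.60 to 4.20) and Sall4 (-1.15 to 22.6), and for the fall of Esrrb (-5.86 to 5.30), Klf2 (-7.00 to 8.27), Nanog (-0.792 to 5.13), Prdm14 (-1.01 to 14.0) and Sall4 (-2.99 to 21.6). None of these differences was called with all 4 libraries, and the cause was not tested.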

Other observations

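Lef1, a nuclear effector of Wnt signalling and 1 of the 8 formative and primed genes, is named here after its values were seen. Its window had polarity of -0.331 and 1.18 points in WT, compared with -21.5 and -16.2 in KO. The WT libraries were balanced at Lef1 and both KO libraries were strongly negative, a difference of -19.3 ± 4.29 points (standard error, limma adjusted p = 0.116). It was the listed gene with the smallest adjusted p, and it lay in neither a common rise nor a common fall.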
